A study of Mus musculus with 32 samples.

Results

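Ion channel genes of 5 symbol groups were read on 2-colour cDNA arrays of eye, brain and heart from sighted C3H mice, each set against RNA of control C3H mice. All probes were taken whose gene symbol starts with Kcn, Cacn or Clcn, or is Scn or Hcn followed by a digit. This gave 72 of 20794 probes, for 54 of 9030 named genes. The symbols also hold channels that are neither voltage-gated nor inward rectifiers, such as the 2-pore, calcium-activated and lysosomal chloride families, and auxiliary subunits that form no pore. The study hybridised RNA of sighted male C3H mice from 6 animals on 12 eye, 12 brain and 8 heart arrays. The control RNA on every array was a pool of 6 male mice labelled C3H.pde6b-, and the eye pool came from other mice than the pool for brain and heart. C3H mice that carry the Pde6b mutation lose their rods, and the design text also calls the sighted line seh mutant. The labels give no ages. The dye of the sighted RNA alternated between arrays.

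Potassium channels set the resting potential and end electrical spikes, calcium channels turn voltage into calcium entry, and chloride channels and exchangers stabilise voltage or acidify vesicles. Inward rectifiers pass potassium ions more easily into the cell than out of it and hold cells near rest. In the retina, rods and cones release transmitter steadily through an L-type calcium channel at their ribbon synapses, whose pore is encoded by Cacna1f. Eye muscle, cornea, lens and blood in a whole eye carry channel sets of their own.

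Neighbouring arrays of opposite dye orientation were averaged into 1 replicate, for 6 replicates in eye, 6 in brain and 4 in heart. Because the sources used here tie no array to an animal, p-values measure the spread between these replicates, which may be technical, and leave out that among the pooled controls. Each value is a log2 ratio, sighted over control, and this direction is likely rather than stated: it was inferred from rod genes in eye. The deposited ratios hold no level, so neither the levels of different channels nor the organ markers themselves could be compared. Array medians lay between -0.06 and 0.54 in eye, 0.00 and 0.11 in brain and 0.04 and 0.22 in heart. On the eye arrays 65 to 70 of the 72 channel probes had a value, on the brain arrays 63 to 72, and on the heart arrays 24 to 67. Heart array 7, a member of replicate 4, had 61.6% of all its values missing. A conflict in the dye label of brain array 3 touches brain replicate 2.

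In sighted eyes 3 channel genes rose and 6 fell. Cacna1f rose most, 2.96-fold, followed by Kcnab2, which encodes a beta subunit of voltage-gated potassium channels, at 1.47-fold, and Kcnn2, a small-conductance calcium-activated potassium channel gene, at 1.26-fold. The genes that fell were Cacng1, Kcnk5, Cacna2d1, Cacna1b, Kcnd3 and Kcne3, by 1.22-fold to 1.81-fold. The 9 genes are 18% of the 50 channel genes tested, while limma called 26.8% of all 15874 genes in eye. In all counts of all genes, a probe without a gene symbol stands as a gene of its own. Of all genes 15.9% were called higher and 11% lower. The median log2 ratio was -0.02 over the channel genes and 0.03 over all genes tested, and the median absolute ratio was 0.16 and 0.15. In a bulk organ, fewer cells of a type and less RNA per cell cannot be told apart.

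Cacna1f and Kcnk5 are the genes with the largest rise, and the largest fall among genes with a promoter entry, and the 250 bases before their annotated start are shown (RefSeq, GRCm38.p6). Cacna1f lies on the plus strand at chrX:7606853-7607102, and Kcnk5 on the minus strand at chr14:20181783-20182032. Promoters were listed for 40 of the 54 channel genes. The capitals mark TAATC, a core of sites that retinal homeobox factors such as Crx are known to bind. Both strands were searched for TAATC and for the longer TAATCC, which contains it, with the sequences in view.
Cacna1f: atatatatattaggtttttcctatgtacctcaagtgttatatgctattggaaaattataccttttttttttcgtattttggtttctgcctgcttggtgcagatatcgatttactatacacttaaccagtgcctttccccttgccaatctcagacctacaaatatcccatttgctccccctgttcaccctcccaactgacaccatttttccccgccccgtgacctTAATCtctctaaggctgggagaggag
Kcnk5: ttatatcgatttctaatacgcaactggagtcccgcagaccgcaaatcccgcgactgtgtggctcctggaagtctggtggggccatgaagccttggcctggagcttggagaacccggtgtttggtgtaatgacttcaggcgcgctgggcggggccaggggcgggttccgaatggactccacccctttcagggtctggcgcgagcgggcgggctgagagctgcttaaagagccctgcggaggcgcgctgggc
The Cacna1f window held 1 TAATC, 26 to 22 bases before the start, and 0 TAATCC. The Kcnk5 window held neither. Of 32851 mouse promoter windows of this length, 19.8% held TAATC and 6.25% held TAATCC, so a match of the shorter motif is common.

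Among the pore subunits of voltage-gated calcium channels, 8 genes were tested, of which 1 rose and 1 fell. Cacna1f had log2 ratios of 1.56, 1.22, 1.57, 1.45, 1.73 and 1.87 in eye replicates 1 to 6. All 6 lay far above 0, and the mean was 1.57 ± 0.23 (SD, n = 6) with a limma adjusted p of 8.44e-06 after Benjamini-Hochberg adjustment over all genes. It was the 119th highest of the 15874 means, with 1.94 on arrays with sighted RNA in Cy5 and 1.20 on those with sighted RNA in Cy3. Of 18 listed rod markers the arrays held 5, Sag, Guca1b, Reep6, Rom1 and Cngb1, with replicate medians between 4.65 and 5.44. The direction of all ratios was set from rod genes, so the sign of these markers is no separate evidence. Of 3 cone markers tested in the same eyes, 3 rose, with a median of 0.33, and of 3 bipolar cell markers 0 passed. Whether the rise of Cacna1f reflects any of these cells alone was not tested.

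Cacna1b, the pore gene of the N-type channel that drives release at many nerve terminals, had -0.07, -0.72, -0.09, -0.34, -0.40 and -0.47. All replicates were below 0, with replicates 1 and 3 close to it, and the mean was -0.35 ± 0.24 (SD, n = 6). Its limma adjusted p was 0.0246, and on arrays with sighted RNA in Cy5 its mean was 0.09. The other 6 pore genes did not pass and had means between -0.09 and 0.16. They were Cacna1a (P/Q-type), Cacna1c and Cacna1d (L-type), Cacna1e (R-type), and Cacna1g and Cacna1h (T-type). Cacna1d, whose L-type channel serves the hair cells of the ear, had -0.04 with an interval from -0.35 to 0.26, which excludes a rise as large as that of Cacna1f.

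Of the auxiliary subunits of calcium channels, 8 of 10 genes were tested, and 2 fell. Cacng1, which encodes the gamma subunit of the skeletal muscle calcium channel, had -0.58, -1.13, -0.81, -0.34, -0.46 and -1.80. The size varied widely, and every replicate was below 0. The mean was -0.85 ± 0.54 (SD, n = 6), a 1.81-fold fall (limma adjusted p 0.00884). Cacna2d1, encoding the alpha2delta-1 subunit found in muscle and neurons, had -0.10, -0.78, -0.21, -0.46, -0.73 and -0.55. Its mean was -0.47 ± 0.27 (SD, n = 6) with a limma adjusted p of 0.00942. Of 12 skeletal muscle markers, 11 fell in the same eyes and 1 rose. Their replicate medians were -0.51, -1.13, -0.69, -0.92, -0.85 and -1.08, lowest in replicates 2 and 6. Cacng1 was lowest in replicates 6 and 2 but fell least in replicate 4, where the muscle median was -0.92. Cacna2d1 was lowest in replicates 2 and 5, with -0.55 in replicate 6. The part of muscle RNA in both values was not tested.

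The remaining auxiliary genes, Cacna2d2, Cacnb1, Cacnb4, Cacng2, Cacng4 and Cacng8, did not pass and had means between -0.17 and 0.16. Cacng2 and Cacng8 are better known for trafficking AMPA receptors. Cacnb2 encodes the beta subunit that partners Cacna1f at the rod synapse in mice, and it had a complete replicate only once, at -0.29, and was not tested. Cacna2d3 had 4 replicates, between -0.26 and 0.16, and was not tested either.

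Among voltage-gated potassium channel pore genes, 8 of 9 were tested, and Kcnd3 fell. Kcnd3 encodes a channel of the fast transient outward current in heart and neurons. It had -0.60, -0.32, -0.11, -0.04, -0.51 and -0.42 in the 6 eye replicates. Replicates 3 and 4 were near 0, and the mean was -0.33 ± 0.22 (SD, n = 6) with a limma adjusted p of 0.0231. Its mean on arrays with sighted RNA in Cy5 was 0.04. Kcnc4, the gene of a fast-inactivating channel, had -0.20 ± 0.13 and Kcnq3, an M-current gene, 0.21 ± 0.15 (SD, n = 6 each), and neither passed, with limma adjusted p of 0.0543 and 0.0601. Kcnc4 passed with arrays centred on their median, with an adjusted p of 0.0108, and with arrays centred and scaled, 0.0111.

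Kcna1, Kcna6, Kcnf1, Kcnh1 and Kcnh2 did not pass either. Kcnf1, an electrically silent subunit, and Kcnh2, the ERG channel gene, had wide spreads, with replicates from -1.13 to 1.82 and from -1.55 to 0.06. Kcnh3 had 4 replicates, between -0.46 and 0.04, and was not tested.

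Of 6 auxiliary genes of potassium channels, 1 rose and 1 fell. Kcnab2 had 0.33, 0.61, 0.86, 0.58, 0.44 and 0.52. All 6 replicates were higher, and the mean was 0.55 ± 0.18 (SD, n = 6) with a limma adjusted p of 0.00118. It had 0.95 on arrays with sighted RNA in Cy5 and 0.16 on those with sighted RNA in Cy3. Kcnab1, the other beta subunit gene measured, had 0.11 with an interval from -0.07 to 0.28 and did not pass. Kcne3, a small membrane subunit that keeps KCNQ1 channels open in epithelia, had -0.52, -0.44, -0.003, -0.25, -0.18 and -0.32. Its replicate 3 lay close to 0, and the mean was -0.29 ± 0.19 (SD, n = 6) with a limma adjusted p of 0.0275 and 0.14 on arrays with sighted RNA in Cy5. The calcium sensors Kcnip1, Kcnip2 and Kcnip3 had means between -0.03 and 0.07.

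None of the 5 inward rectifier genes tested passed in eye with limma. Kcnj8, the pore of the vascular ATP-sensitive channel, had 0.11 ± 0.10 (SD, n = 6), and its interval from -0.02 to 0.25 was the narrowest of the family. Kcnj16, a subunit of the glial and renal channels, had 0.16 and Kcnj15 0.05. Kcnj12, a strong rectifier of heart and skeletal muscle, had 0.05, which turned to -0.01 with arrays centred and scaled. Kcnj3, the G-protein-gated subunit, had -0.01. The intervals of all 5 lay between -0.30 and 0.47, so a change of the size seen for Cacna1f lay outside them.

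Of 3 genes for 2-pore potassium channels, which carry background currents, Kcnk5 fell. Kcnk5 encodes an alkaline-activated channel of epithelia and had -0.52, -0.32, -0.48, -0.64, -0.50 and -1.18. All 6 replicates were lower, with replicate 6 lowest, and the mean was -0.61 ± 0.30 (SD, n = 6) with a limma adjusted p of 0.00392. Kcnk3, an acid-sensitive channel gene, had -0.13 and Kcnk2, a mechanically gated channel gene, -0.02. Kcnk3 did not pass but did with arrays centred and scaled, with an adjusted p of 0.0451. Of 9 markers of cornea and surface epithelium, 8 fell in the same eyes, with replicate medians of -1.53, -0.84, -1.08, -0.98, -1.18 and -0.71. Replicate 6, where Kcnk5 was lowest, had the smallest fall of these markers. Kcne3 was lowest in replicates 1 and 2, at -0.52 and -0.44, where the markers had -1.53 and -0.84. The part of these epithelia in the fall of Kcnk5 and Kcne3 was not tested.

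Of 6 tested genes placed by symbol with the calcium- and sodium-activated potassium channels, Kcnn2 rose. It had 0.29, 0.22, 0.33, 0.26, 0.30 and 0.60, and its mean was 0.33 ± 0.14 (SD, n = 6) with a limma adjusted p of 0.00706. The other replicates lay close together and replicate 6 stood above them. Kcnn3, its close relative, had 0.19 and did not pass (limma adjusted p 0.122). Kcnn4, the intermediate-conductance channel gene of red cells and lymphocytes, had -0.26 and an adjusted p of 0.0955, which fell to 0.0481 with arrays centred and to 0.0439 with arrays centred and scaled. Its 1 tested probe had -0.15 and did not pass alone (limma adjusted p 0.245). The other Kcnn4 probe had 4 replicates, from -1.09 to 0.37, too few for a test. In the same eyes 3 of 3 blood markers and 7 of 9 immune markers fell, and their part in the Kcnn4 value was not tested. Kcnmb2, an accessory subunit gene of the large-conductance channel, had -0.16 (n = 5) and passed with arrays centred (adjusted p 0.0319) or centred and scaled (0.0263). Kcnt1, a sodium-activated channel gene, had 0.09. Kcnu1, a sperm channel gene placed here by symbol only, had -0.38 with replicates from -2.03 to 0.79 (n = 5). Kcnmb4 was not tested, with 4 replicates from -1.48 to 1.91.

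All 4 chloride transporter genes had means above 0, and none passed in limma. Clcn3 had 0.32, Clcn5 0.21, Clcn4 0.17 and Clcn7 0.13, and all encode chloride-proton exchangers of endosomes or lysosomes. With sighted RNA in Cy3 these genes had -0.03, -0.10, -0.01 and -0.07, beside a median of -0.22 over all genes in that orientation. Their sign thus turned with the dye, as it did for most of all genes in eye. The chloride genes had a median of 0.15 with arrays centred on their median. Scn3b, the sodium channel beta3 subunit gene and the only gene here with Scn followed by a digit, had -0.20 ± 0.26 (SD, n = 6). Hcn3, a pacemaker channel gene, had -0.07 with an interval from -0.21 to 0.07. Neither passed, and Scn3b had an adjusted p of 0.0483 with arrays centred and scaled.

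**Figure D1:**
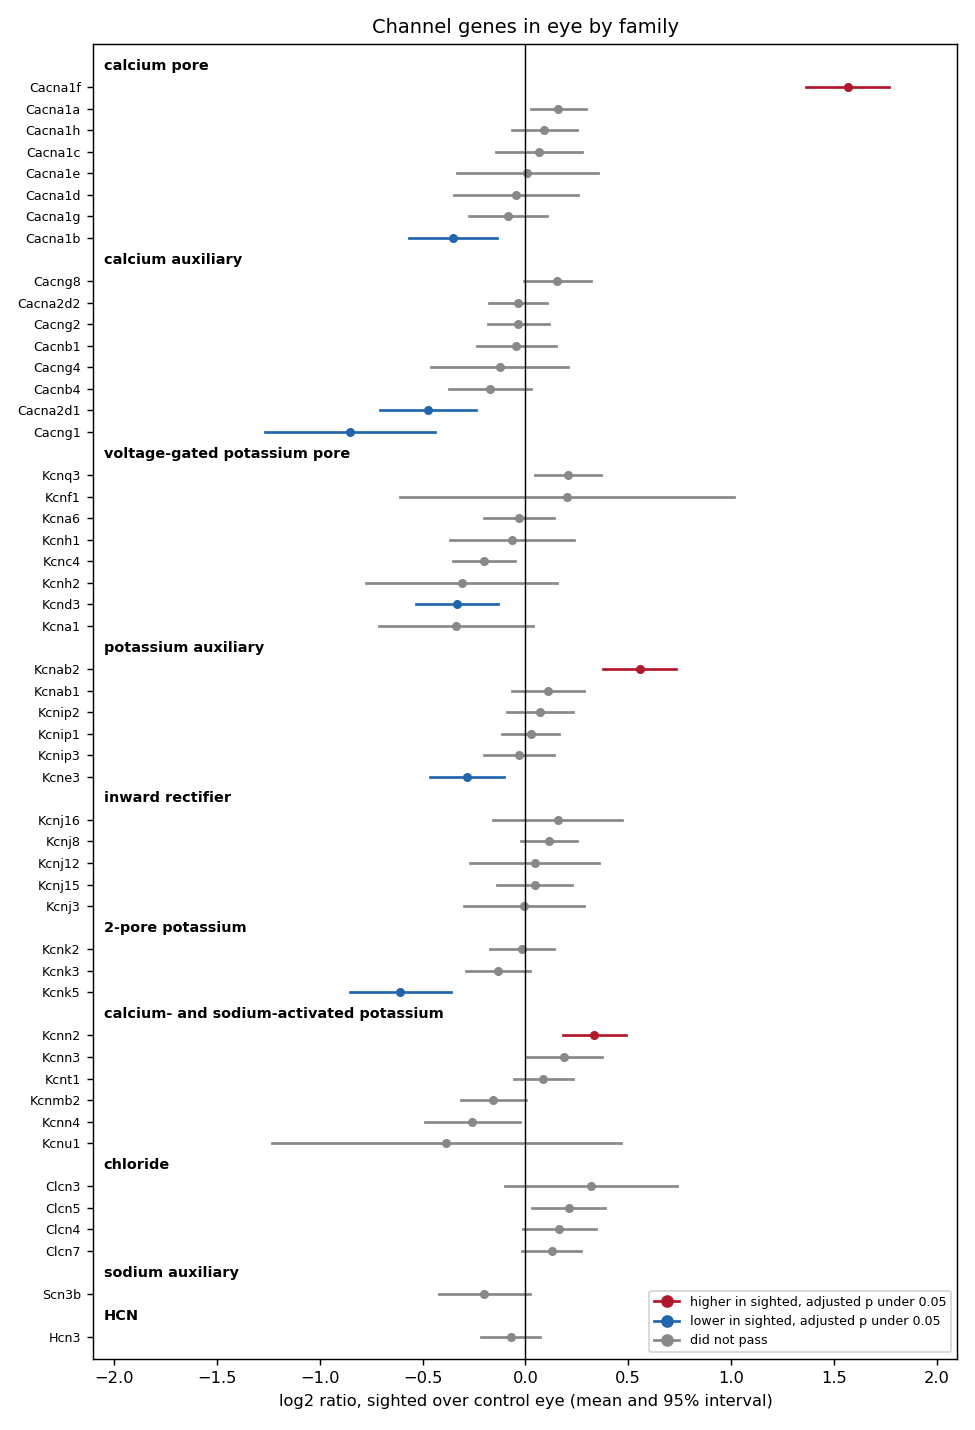
Mean log2 ratio (horizontal axis, sighted over control eye) of the 50 channel genes tested, by family, with 95% intervals from limma's moderated spread. Cacna1f at 1.57 stands apart, Kcnab2 and Kcnn2 are the other genes higher in sighted eyes, and 6 genes lie below 0 in blue.

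Of the 41 channel genes in eye that did not pass, 36 had a 95% interval inside -0.5 to 0.5 on the log2 scale. The interval reached a median of 0.18 to each side of the mean, against 0.19 over all genes. Kcne3 was no longer called when replicate 1, 2, 4, 5 or 6 was left out (adjusted p between 0.0523 and 0.0827), Cacna1b without replicate 4, 5 or 6, between 0.0632 and 0.0669, and Kcnd3 without replicate 1, 5 or 6, between 0.0612 and 0.0714. Kcnd3 also missed with every array on its own (0.0541). Over all settings tried their adjusted p ranged from 0.00587 to 0.22, from 0.00267 to 0.488 and from 0.0107 to 0.869. Clcn5 gained a call without replicate 5, with an adjusted p of 0.0474 in a range from 0.00397 to 0.656. The other 6 called genes kept their calls with any replicate left out. With arrays centred and scaled, 14 channel genes were called, 3 higher and 11 lower, against 31.9% of all genes.

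Most channel genes in eye moved with the dye, as did most of all genes. Of the 50 tested channel genes in eye, 47 (94%) had a higher mean with sighted RNA in Cy5 than in Cy3, against 96.7% of all genes. Of these 50, 34 were above 0 in the first and below 0 in the second, against 10177 of all 15874 genes. Tested alone, the arrays with sighted RNA in Cy5 called 12 of 51 channel genes higher and 1 lower, against 40.4% of all genes called. Those of the opposite orientation called 1 of 52 higher and 10 lower, against 24.2% of all genes. Among the 9 called genes, Cacna1f, Kcnab2 and Kcnn2 were above 0 in both orientations, and Cacng1, Kcnk5 and Cacna2d1 below 0 in both. Cacna1b, Kcnd3 and Kcne3 were below 0 with sighted RNA in Cy3 only. The median over all genes in eye was 0.27 with sighted RNA in Cy5 and -0.22 in Cy3. In Cy5 these 3 genes had 0.09, 0.04 and 0.14, below that median. Cacna2d1 had -0.13 with sighted RNA in Cy5 and -0.81 in Cy3, and Kcnn2 ranged from 0.16 to 0.51 over all settings tried. Cacna1f and Cacng1 passed in each orientation alone.

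**Figure D2:**
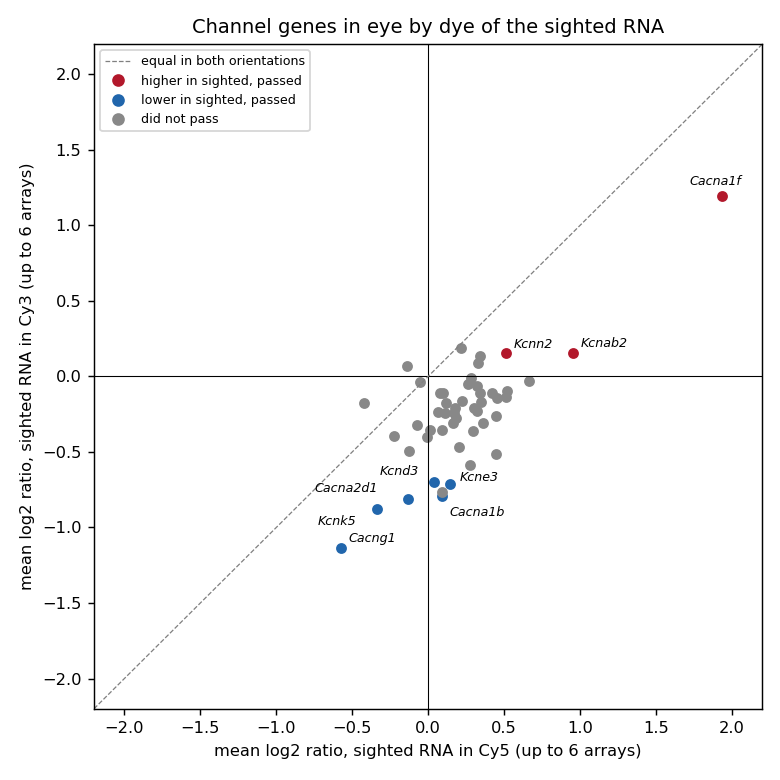
Mean log2 ratio of each tested channel gene in eye on arrays with sighted RNA in Cy5 (horizontal axis) and in Cy3 (vertical axis). Nearly all points lie below the dashed line of equal values, and only Cacna1f lies above 1 on both axes.

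Probes of the same gene were compared for the 11 channel genes with more than 1 probe. No gene had probes called in opposite directions. Cacna2d1 had 3 probes, at -0.87, -0.34 and -0.21, of which the first 2 passed when every probe was tested on its own. Cacna1a had probes at 0.17 and -0.20, neither of which passed, and another with 3 replicates between 0.46 and 1.45, so its gene mean of 0.16 joins values that differ in sign. Kcnip2 had tested probes at 0.15, 0.28 and -0.10, none of which passed. Clcn4 had 1 called probe, at 0.27 with an adjusted p of 0.0453, beside another at 0.04 and another with too few replicates. Tested singly, 11 of 61 channel probes passed, in 10 genes, against 27% of all probes.

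**Figure D3:**
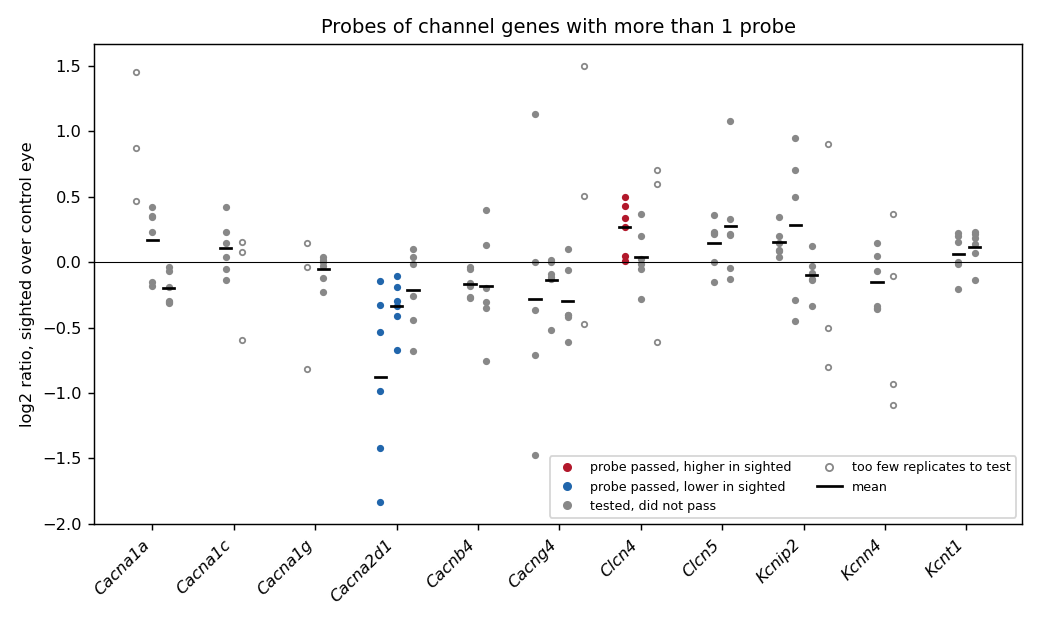
Log2 ratios (vertical axis, sighted over control eye) in each replicate for every probe of the 11 channel genes with more than 1 probe, where black bars are means. The first 2 probes of Cacna2d1 are lower in sighted eyes, and open points mark probes with too few replicates.

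Brain showed no channel gene that passed. Limma called 0 of 51 channel genes tested, with 3 at an unadjusted p under 0.05, against 0.00621% of all 16112 genes called and 657 at that unadjusted p. The genes with the smallest p were Kcnu1 at 0.30, Cacng2 at 0.15, Cacna1d at 0.20, Scn3b at -0.13 and Clcn5 at -0.11, all with an adjusted p of 0.959. Kcnu1 had -0.01, 0.45, 0.22, 0.05, 0.82 and 0.30 in the 6 brain replicates, so it was near 0 in replicates 1 and 4. Of the 51 genes, 43 had an interval inside -0.5 to 0.5. Cacna1f had 4 brain replicates, at 0.26, 0.43, -0.15 and 0.01, and was not tested. They lie on both sides of 0 and below all eye replicates. The medians over channel genes and all genes tested were both 0.00.

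Heart gave 0 of 39 channel genes tested in limma, with 5 at an unadjusted p under 0.05, against 0% of all 12755 genes and 1042 at that unadjusted p. Kcnk3, whose current is known in cardiac muscle, had 0.39, 0.95 and 0.86 in replicates 1 to 3 and no value in replicate 4. All 3 were above 0, with a mean of 0.73 ± 0.30 (SD, n = 3) and a limma adjusted p of 0.568. Its means by orientation were 2.06 with sighted RNA in Cy5 and -0.89 in Cy3. Scn3b had -0.51, Kcnh1 -0.49 and Kcnn4 -0.49 (n = 3 each), and Kcnmb2 -0.55 (n = 4), with the same adjusted p. Only 21 of the 39 genes had all 4 replicates, and 6 had an interval inside -0.5 to 0.5. Intervals reached a median of 0.47 to each side. The median over channel genes was -0.13, against -0.01 over all genes. Among the 15 channel genes not tested in heart were Cacna1f with 1 replicate, at -0.83, and Cacng1, Kcnab2 and Kcnk5 with 2 each.

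The difference between organs was tested for each channel gene with each organ's own spread. Between eye and brain, 2 of 49 channel genes were higher in eye and 5 lower, or 14.3%, against 18.4% of all 15499 genes, 11.3% higher and 7.14% lower. Kcnab2 had 0.55 in eye and 0.06 in brain, a difference of 0.50 with an interval from 0.28 to 0.72 and an adjusted p of 0.00279. All its eye replicates lay above all its brain replicates, which reached 0.19. Kcnk5 had -0.61 in eye and -0.01 in brain, and Cacna2d1 -0.47 in eye and 0.06 in brain, with differences of -0.60 and -0.53 and adjusted p of 0.00555 and 0.00557. Cacng1 had -0.85 in eye and -0.07 in brain, with a difference of -0.79 and an adjusted p of 0.016, which became 0.0502 without eye replicate 2, in a range from 0.01 to 0.0502. Its brain value rested on replicate 3 at -0.52, while the other 5 brain replicates lay between 0.00 and 0.08.

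Cacna1b differed by -0.42, Kcne3 by -0.48 and Clcn5 by 0.32 between eye and brain, with adjusted p between 0.0188 and 0.0247. Clcn5 passed this test although it passed in neither organ alone, with 0.21 in eye and -0.11 in brain. Kcnn2 and Kcnd3, called in eye, did not pass for the difference, with adjusted p of 0.131 and 0.847 and intervals from 0.03 to 0.59 and from -0.50 to 0.35. Cacna1f could not be tested for it.

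Between eye and heart 0 of 38 channel genes passed, with 3 at an unadjusted p under 0.05, against 4.64% of all 12547 genes called, 2.61% higher and 2.02% lower. The smallest p was that of Kcnk3, at -0.13 in eye and 0.73 in heart, with a difference of -0.86, an interval from -1.36 to -0.37 and an adjusted p of 0.073. Kcnn2, Cacna2d1, Kcnn3 and Clcn4 followed, with differences of 0.58, -0.55, 0.41 and 0.37. Between brain and heart 0 of 39 passed, with 4 at an unadjusted p under 0.05, against 0% of all 12688 genes. Kcnk3, Kcnn4, Kcne3, Kcnh1 and Kcnmb2 had the smallest p there, with differences of -0.96, 0.57, 0.61, 0.49 and 0.56. The brain mean of Kcnk3, -0.23, rested on replicate 5 at -1.94, beside 5 replicates between -0.23 and 0.28. These comparisons share the ratios of an organ, and brain and heart also share their control mice.

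**Figure D4:**
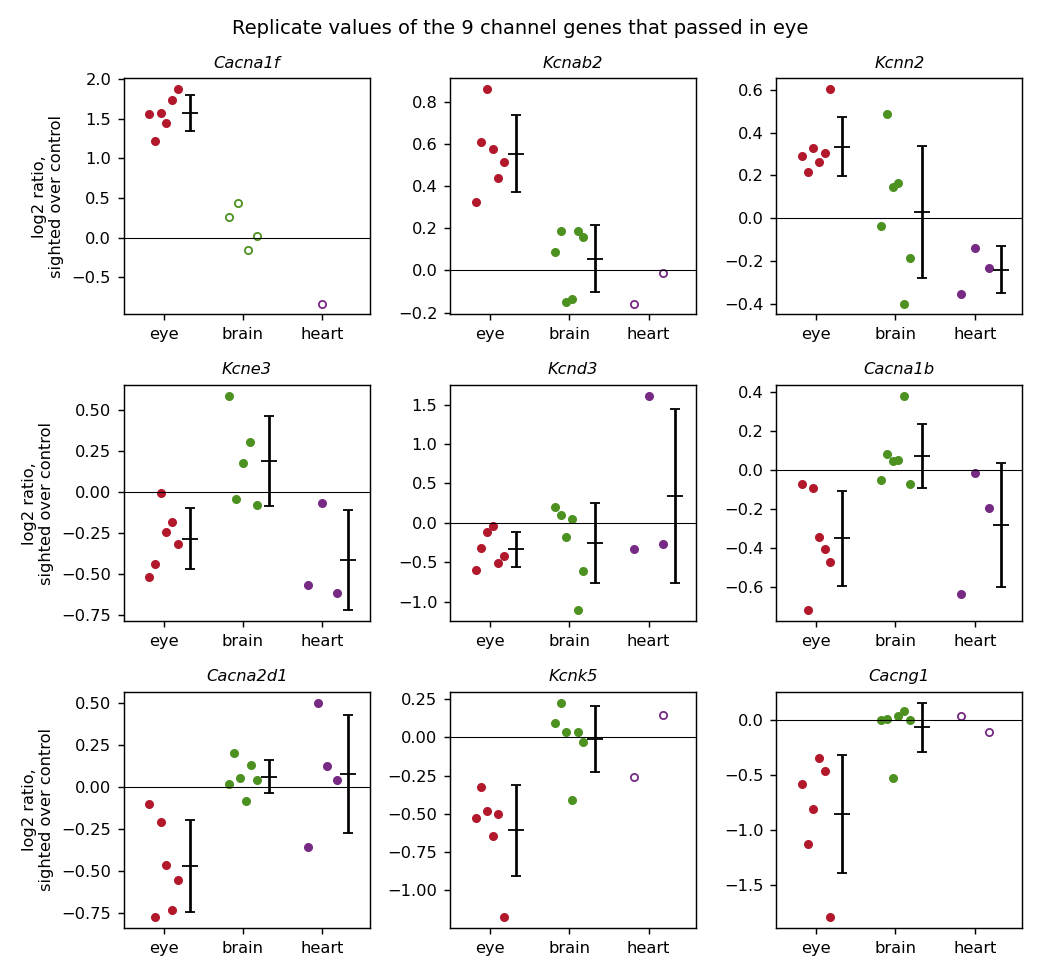
Log2 ratios (vertical axes, sighted over control, each panel with its own scale) of the 9 channel genes that passed in eye, by replicate in eye, brain and heart, with the mean and SD in black. Open points mark organs with too few replicates for a test, and the 6 eye values of Cacna1f, from 1.22 to 1.87, lie above its 4 brain values.

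Genes that work with these channels were read from lists of 22 other retinal channels, 45 channel partners and 35 pumps and exchangers. Beside their counts, limma called 15.9% of all genes higher in eye and 11% lower. Of 9 other channels tested in eye, 1 rose and 3 fell, with a median of -0.18. Cngb1, a subunit of the rod cyclic nucleotide channel that lets calcium into the outer segment, rose by 5.10, while Clic1 had -0.77 and Ano1, a calcium-activated chloride channel gene, -0.72. Of 22 partners tested, only Ank2 rose, by 0.43 ± 0.16, and only Rrad fell, at -0.30 ± 0.19 (SD, n = 6 each), with a median of 0.09 over the list. Ank2 encodes ankyrin-B, which anchors channels and exchangers to the membrane skeleton, and Rrad encodes an inhibitor of L-type calcium channels in muscle. Bsn, a ribbon synapse scaffold gene, had 0.18 and did not pass (limma adjusted p 0.0587).

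Of 16 pumps and exchangers tested in eye, 3 rose and 5 fell, with a median of -0.08. Over all genes in eye limma called 26.8%. Atp1b2, a beta subunit of the sodium-potassium pump found in photoreceptors and glia, rose by 1.23 ± 0.17 (SD, n = 6), or 2.34-fold. Atp2a1, the calcium pump gene of fast muscle, had -1.11 ± 0.34 and Slc12a2, a chloride importer gene, -0.62 ± 0.14 (SD, n = 6 each). No gene of these 3 lists passed in brain or heart in limma, where 0.00621% and 0% of all genes were called.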

How the data were processed

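The deposited values are log2 ratios of 2 dyes within an array, taken as Cy5 over Cy3. Per the labels' protocols total RNA was reverse transcribed, labelled indirectly and mixed with the control pool of 6 animals. No source used here gives scanner settings, background correction or normalization, so dim probes could not be filtered. A value above 15 repeated at the top of an array was set missing (4170 values). The sign was flipped on even-numbered arrays (sighted RNA in Cy3). Each probe was averaged within a dye pair, then over the probes of its gene. A gene could miss 1 replicate. Means were tested against 0 with limma 3.58.1 in R 4.3.3, two-sided, Benjamini-Hochberg adjustment over all genes, threshold 0.05. Organ differences used each organ's moderated variance and Satterthwaite degrees of freedom. Both tests were tested on simulated data. Gene names come from the platform annotation, where 12771 probes had 1 symbol, 0 several and 8023 none, and all 54 channel symbols matched RefSeq. Each probe with no symbol was kept singly and counted among all genes, also in the Benjamini-Hochberg adjustment. Families came from the symbol.

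Named with values were all called channel genes, the gene of smallest p per family in eye, the 5 of smallest p in brain, heart and each organ difference, and up to 3 per other list. Other channel genes are given to account for every member, beyond that rule. The members and lists were chosen with earlier results of these data known. Alternatives were single arrays, a random block, centring, scaling, ceiling values kept, every replicate required, robust moderation, a single dye, single probes and each replicate left out. The number of arrays limits the precision.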

Additional observations from a re-analysis of the deposited data

Results flagged for a closer look

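Differences between eye and brain that passed the test were 0.50 for Kcnab2, -0.60 for Kcnk5, -0.53 for Cacna2d1, -0.79 for Cacng1, -0.42 for Cacna1b, -0.48 for Kcne3 and 0.32 for Clcn5.

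A single replicate stood apart from the others in 6 of 49 groups of a named channel gene and an organ. Chance flags about 1 in 20 such groups. In eye, Kcnn2 had 0.60 in replicate 6 against 0.22 to 0.33 in the other replicates. In brain, Cacna1b had 0.38 in replicate 5, Cacng1 -0.52 in replicate 3, Cacng2 -0.0815 in replicate 6 and Kcnk3 -1.94 in replicate 5. In heart, Clcn5 had 0.32 in replicate 2 against -0.17 to -0.11 in the other replicates.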

How the results depend on the processing

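With any replicate left out, between 6 and 9 channel genes were called in eye, 0 in brain and 0 in heart, and the eye median lay between -0.05 and 0.02. Between eye and brain 5 to 8 were called, and 0 between brain and heart and between eye and heart. When every replicate was kept, 9 channel genes and 26.8% of all genes were called in eye, and 7 and 18.4% between eye and brain. Shares of all genes with a replicate left out are not given here, so these counts describe the settings only. With arrays centred and scaled 14 channel genes were called in eye, against 9. With sighted RNA in Cy5 only or in Cy3 only the eye median was 0.18 and -0.21, and 4 and 6 channel genes were called in brain, against 4.45% and 8.06% of all genes. The number of channel genes tested in brain by single orientation is not given here, and the main brain fit tested 51. With a shared spread over all organs 3 channel genes differed between eye and brain, over 38 tested, and 3 between eye and heart, against 12.5% and 22.8% of all genes. The cause was not tested.

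On arrays of a single orientation the sign turned for 12 of the gene values recomputed under these settings. These do not include all 34 channel genes above 0 with sighted RNA in Cy5 and below 0 with it in Cy3 in eye. With sighted RNA in Cy5 only, Cacna1b had 0.094, Hcn3 0.17, Kcnd3 0.037 and Kcne3 0.14 in eye, Cacng2 -0.015 and Scn3b 0.32 in brain, and Kcnh1 0.020 and Kcnmb2 0.12 in heart. With Cy3 only, Clcn5 had -0.098 and Kcnj8 -0.11 in eye, Cacna1d -0.050 in brain and Kcnk3 -0.89 in heart.

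Whether replicate numbers pair organs could not be decided. Deviations of same-numbered replicates had correlations between -0.048 and 0.053 over genes, and not every replicate correlated best with its own number. With the number as a replicate block, 6 channel genes differed between eye and brain, 0 between brain and heart and 0 between eye and heart. The main test called 7 channel genes and 18.4% of all genes between eye and brain. The share of all genes under the block is not given here, so its count is not set against all genes. Cacna1b was not called under this block. Depth is unknown for ratios without intensities.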
